A study of Rattus norvegicus with 10 samples.

Results

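The genes described here are Actb (β-actin), Ezr (ezrin), Pxn (paxillin) and Sptan1 (αII-spectrin), 4 of the 3334 genes in the expression table of a study of rat lens capsules under low temperature. They were taken by symbol, and each symbol had 1 row. The capsule encloses the lens and carries its epithelial cells. Both capsules (2) of 1 male SD (Sprague-Dawley) rat, aged 6 weeks, were pooled into each sample. The Hypothermia Group had 5 rats, whose isolated lenses stood in Hibernate-A medium at 4°C for 8 h. The Normal Group also had 5 rats, whose capsules were taken directly after euthanasia. The Normal lenses had no time in medium, so cold, medium and time out of the eye cannot be told apart, and RNA samples with a RIN (RNA integrity) of at least 5.8 had been selected.

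Actin filaments lie under the membrane of every lens cell and give the cell its shape. They reach the membrane through several kinds of linker. Ezrin belongs to the ERM family (ezrin, radixin, moesin), whose members bind membrane proteins with one end and actin with the other. Spectrin is a long tetramer of α and β chains that crosslinks short actin filaments into a network under the membrane, which in lens fibre cells keeps the regular hexagonal packing. Paxillin is an adaptor of focal adhesions, the sites where integrins tie actin to the extracellular matrix, here the capsule itself. As epithelial cells become fibre cells they elongate many-fold and rebuild these structures.

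The table is not a list of all expressed genes. Each gene in it differed between the group means by at least 0.25 on the log2 scale, and 3221 of the 3222 tested genes had an unadjusted p under 0.05 with edgeR, so a call in it is the rule and not the exception. Summed over the listed genes, a Hypothermia rat had 9026144 to 12415121 counts and a Normal rat 4792595 to 8177803. The size factors behind the authors' normalised counts were 0.744 to 0.980 for Hypothermia rats and 1.08 to 1.26 for Normal rats, and the deposited FPKM values (fragments per unit of gene length, here scaled between rats) use the same factors. Of the 9 epithelial markers looked for, Pax6, Gja1 and Cdk1 were in the table, summing to 18942 to 23987 normalised counts in Hypothermia rats and 25787 to 32171 in Normal rats. The remaining 6 were not analysed. The 18 lens fibre genes in the table (crystallins, Mip, Lim2, Bfsp1 and Bfsp2) made up 58.3% to 70.1% of listed counts in Hypothermia rats against 22.2% to 52.1% in Normal rats. In such bulk samples, more cells of a type and more RNA per cell cannot be told apart.

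All 4 genes were higher in the Hypothermia Group with the authors' size factors. All 4 values turned negative when rats were scaled to their total listed counts. Actb and Pxn were then called lower, and Ezr and Sptan1 were not called. Listed totals cover changed genes only and are not the total depth of a rat. With the authors' size factors the rise was 1.88-fold for Sptan1, 1.75-fold for Ezr, 1.48-fold for Actb and 1.35-fold for Pxn. Each of the 4 was called at an adjusted p under 0.05, where 72.9% of all tested genes were called in either direction and 52.3% were called higher. Of all called genes 71.8% were higher with the authors' size factors, 36.7% under TMM (edgeR's trimmed-mean scaling, here on the listed genes) and 2.32% with total listed counts. The groups did not overlap for Ezr, Pxn and Sptan1, as for 41.9% of all tested genes in that direction, and they overlapped for Actb. Among all tested genes, whose median log2FoldChange was 0.36, Sptan1 stood at percentile 86.0, Ezr at 82.1, Actb at 69.7 and Pxn at 58.0.

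**Figure D1:**
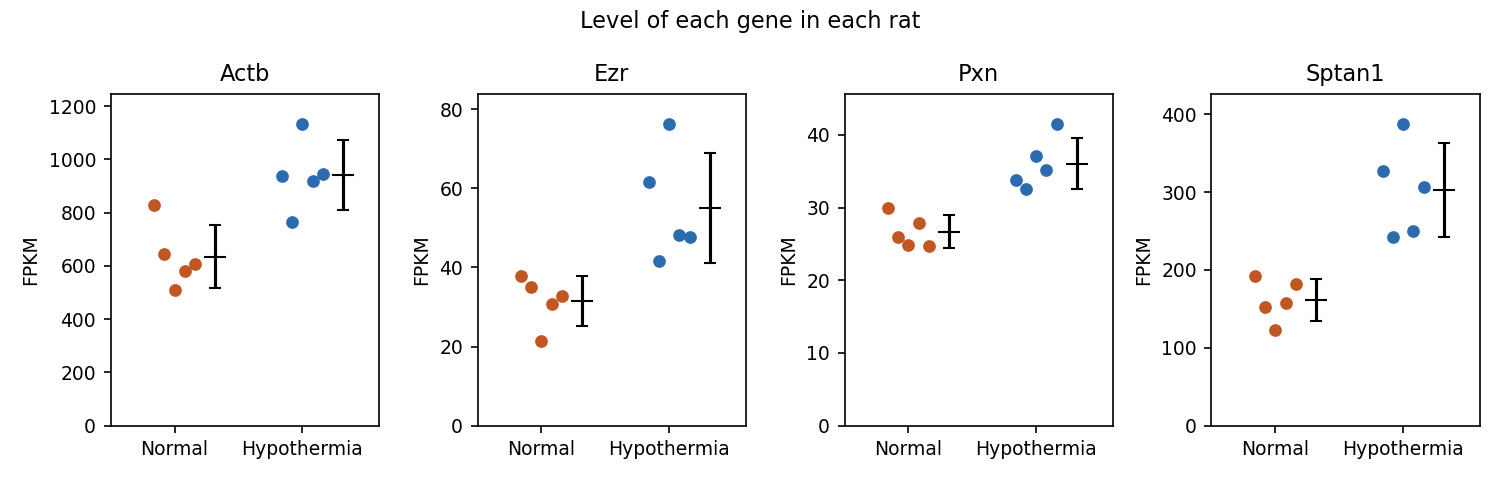
FPKM of Actb, Ezr, Pxn and Sptan1 (1 panel each, vertical axis from 0) in the 5 Normal rats (orange points) and the 5 Hypothermia rats (blue points), with the mean and SD as a black bar. The groups stand apart for Ezr, Pxn and Sptan1, while for Actb Normal replicate 1 (827) lies above Hypothermia replicate 2 (766).

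Actb (chromosome 12 of Rnor_6.0, 13715843 to 13718841, plus strand) encodes the cytoplasmic β-actin from which the filaments are built. Its FPKM in Hypothermia replicates 1 to 5 was 939, 766, 1134, 919 and 945. In Normal replicates 1 to 5 it was 827, 644, 508, 583 and 608. Hypothermia replicate 2 was the lowest of its group and fell below Normal replicate 1, the highest of the Normal Group, while the other 8 rats kept to their sides. The means were 941 ± 131 (SD, n = 5) under hypothermia against 634 ± 119 (SD, n = 5) in Normal rats. The log2FoldChange was 0.57 (SE 0.15, edgeR adjusted p = 0.0296, where edgeR stands for its quasi-likelihood test and the adjustment is that of Benjamini and Hochberg). This was the least stable call of the 4 genes. It held without Normal replicate 1 (0.68, edgeR adjusted p = 0.00832) and without Hypothermia replicate 2 (0.63, edgeR adjusted p = 0.0198). It was lost when any 1 of the other 8 rats was left out, with adjusted p-values from 0.0564 to 0.0801 (edgeR) and log2FoldChanges from 0.49 to 0.58.

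Actb was also the gene to which the study normalised its RT-qPCR, an assay not analysed here. The primers for that reference were the following pair, shown because this gene served as that reference and is itself among the called genes.
Actb forward: cagggtgtgatggtgggtatgg
Actb reverse: agttggtgacaatgccgtgttc
Actin genes are near-identical over their coding parts, and how reads shared between copies were counted is not given in the sources used here, so the Actb counts are uncertain to that extent. The row named Actg1 shows the difficulty. It covers 1901 bases on chromosome 3 (75643054 to 75644954) with a gene length of 1901, so it has no introns, while RefSeq places Actg1 on chromosome 10 in the GRCr8 assembly. Its FPKM was 66.2 ± 6.35 (SD, n = 5) under hypothermia against 49.1 ± 8.91 (SD, n = 5) in Normal rats. Its log2FoldChange was 0.43 (SE 0.12, edgeR adjusted p = 0.0357), a call that 8 of the 10 single omissions of a rat ended and that was not made under TMM (0.15, edgeR adjusted p = 0.918). As for Actb, its highest rats were Hypothermia replicate 3 and Normal replicate 1 and its lowest were Hypothermia replicate 2 and Normal replicate 3. The 4 muscle and smooth muscle actin genes (Acta1, Acta2, Actc1 and Actg2) were not analysed here.

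Ezr (chromosome 1 of Rnor_6.0, 47287874 to 47331412, minus strand) had an FPKM of 61.6, 41.6, 76.3, 48.2 and 47.7 in Hypothermia replicates 1 to 5. In Normal replicates 1 to 5 it was 37.8, 35.0, 21.4, 30.7 and 32.8. Every Hypothermia rat lay above every Normal rat, but the gap was small, from 37.8 to 41.6, and Hypothermia replicates 1 and 3 stood well above the other 3 of their group. The means were 55.1 ± 13.9 (SD, n = 5) and 31.5 ± 6.24 (SD, n = 5). Ezr was the most variable of the 4 genes in both groups, with a coefficient of variation of 25.3% in the Hypothermia Group and 19.8% in the Normal Group. The log2FoldChange was 0.80 (SE 0.18, edgeR adjusted p = 0.0156). It stayed called with each of the 10 rats omitted in turn, between 0.66 and 0.89.

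Sptan1 (chromosome 3 of Rnor_6.0, 8534440 to 8599260, plus strand) had an FPKM of 327, 242, 388, 249 and 307 in Hypothermia replicates 1 to 5. In Normal replicates 1 to 5 it was 193, 152, 123, 158 and 181. The groups were apart, from 193 in the highest Normal rat to 242 in the lowest Hypothermia rat. The means were 303 ± 59.8 (SD, n = 5) and 161 ± 27.2 (SD, n = 5). The log2FoldChange was 0.91 (SE 0.18, edgeR adjusted p = 0.00864), the largest of the 4 genes. It lay between 0.80 and 0.98 with each of the 10 rats omitted in turn and was called each time. Sptan1 was the only one of the 4 that was still called under TMM scaling with adjustment over 17000 genes (log2FoldChange 0.62, edgeR adjusted p = 0.0129).

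Pxn (chromosome 12 of Rnor_6.0, 46797954 to 46845080, minus strand) had an FPKM of 33.9, 32.6, 37.1, 35.2 and 41.6 in Hypothermia replicates 1 to 5. In Normal replicates 1 to 5 it was 30.0, 25.97, 24.8, 27.9 and 24.7. The groups were apart by a narrow margin, since the highest Normal rat reached 30.0 and the lowest Hypothermia rat 32.6. The means were 36.1 ± 3.49 (SD, n = 5) and 26.7 ± 2.28 (SD, n = 5). Pxn had the smallest change and also the smallest spread, with coefficients of variation of 9.67% and 8.54%. Its log2FoldChange was 0.43 (SE 0.09, edgeR adjusted p = 0.00965), and it was called with each of the 10 rats omitted in turn, between 0.38 and 0.48. A change of this size depends on the scaling, and under TMM it was 0.15 and not called (edgeR adjusted p = 0.406). The counting error of a single Pxn value was at most 2.45%, below the spread between rats.

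The order of the levels per length was the same in the means of both groups, with Actb highest, then Sptan1, Ezr and Pxn. No rat's Sptan1 value reached any rat's Actb value of the same group, and no Ezr value reached any Sptan1 value. Ezr and Pxn were neighbours. In the Normal Group they overlapped, with Ezr from 21.4 to 37.8 and Pxn from 24.7 to 30.0. In the Hypothermia Group the lowest Ezr value and the highest Pxn value were both 41.6, with Ezr just above. Among the 3334 listed genes, Actb ranked 41 by mean FPKM in the Hypothermia Group and 34 in the Normal Group, and Sptan1 ranked 136 and 153. Ezr ranked 606 and 753, and Pxn ranked 878 and 887.

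**Figure D2:**
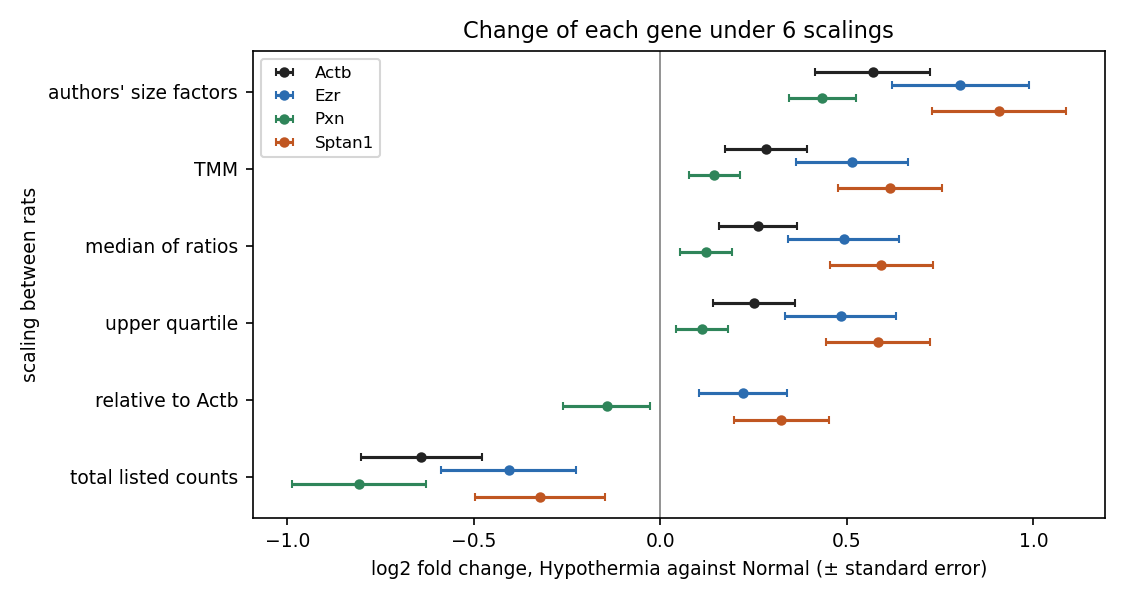
Log2FoldChange of the 4 genes, Hypothermia Group against Normal Group (horizontal axis, points with standard errors), under 6 ways of scaling the rats (vertical axis), with colours for the genes as in the key. The order Sptan1, Ezr, Actb, Pxn is the same throughout, since a scaling moves all genes by nearly the same amount. Actb has no point in the scaling to Actb. All 4 values move from above 0 with the authors' size factors to below 0 with total listed counts.

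The sign and the call of these changes depended on the scaling. Their order did not, because a rescaling of the rats moves all genes by nearly the same amount. The table holds changed genes only, so no scaling computed on the listed genes is neutral, and listed totals are not total depth. Which scaling fits these samples best was not tested. Relative to the authors' size factors, TMM on the listed genes lowered the log2FoldChange by a median of 0.29 over all genes, and scaling to total listed counts lowered it by a median of 1.23. Under TMM the values were 0.62 for Sptan1, 0.51 for Ezr, 0.28 for Actb and 0.15 for Pxn. Scaled to total listed counts they were -0.32, -0.41, -0.64 and -0.81 in the same order (edgeR adjusted p = 0.481, 0.227, 0.00689 and 0.00265). Scaled to Actb, as in a RT-qPCR, Sptan1 and Ezr were at 0.32 and 0.22 and Pxn was at -0.14, none of them called (adjusted p = 0.253, 0.684 and 1 from edgeR).

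A ratio of 2 genes within a rat does not depend on the scaling between rats, so the 6 pairs were compared as ratios of FPKM with exact permutation tests, two-sided, over the 252 assignments of 10 rats to the groups, and adjusted over the 6 pairs. For 2 pairs the adjusted p over the 6 pairs was under 0.05. The Sptan1 to Actb ratio in Hypothermia replicates 1 to 5 was 0.348, 0.316, 0.342, 0.271 and 0.325. In Normal replicates 1 to 5 it was 0.233, 0.236, 0.242, 0.270 and 0.299. The groups overlapped, since Normal replicate 5 lay above Hypothermia replicate 4, and the means were 0.321 ± 0.0303 (SD, n = 5) and 0.256 ± 0.0281 (SD, n = 5). The difference was 0.33 on the log2 scale (SE 0.09, exact permutation p = 0.0159, adjusted p = 0.0476). The Sptan1 to Pxn ratio was 8.40 ± 1.54 (SD, n = 5) against 6.04 ± 0.901 (SD, n = 5), a log2 difference of 0.47 (SE 0.15, exact permutation p = 0.0159, adjusted p = 0.0476). Normal replicate 5, at 7.36, lay within the Hypothermia range of 7.09 to 10.5. With 1 rat left out, both pairs kept an adjusted p of 0.0476 without Hypothermia replicate 4 or without Normal replicate 5, and had one of 0.0952 without any 1 of the other 8 rats (exact permutation tests).

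The other 4 ratios did not pass the test. The Ezr to Actb ratio was 0.0580 ± 0.00785 (SD, n = 5) under hypothermia against 0.0498 ± 0.00554 (SD, n = 5) in Normal rats, a log2 difference of 0.22 (SE 0.11, exact permutation adjusted p = 0.202). The Pxn to Actb ratio was 0.0387 ± 0.00463 (SD, n = 5) and 0.0428 ± 0.00538 (SD, n = 5), a log2 difference of -0.14 (SE 0.11, exact permutation adjusted p = 0.276). Relative to Ezr, the log2 difference was -0.36 for Pxn (SE 0.20, exact permutation adjusted p = 0.202) and 0.11 for Sptan1 (SE 0.09, exact permutation adjusted p = 0.302). Within these limits of error, changes of Ezr, Actb and Pxn were not told apart from each other at 5 rats per group.

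**Figure D3:**
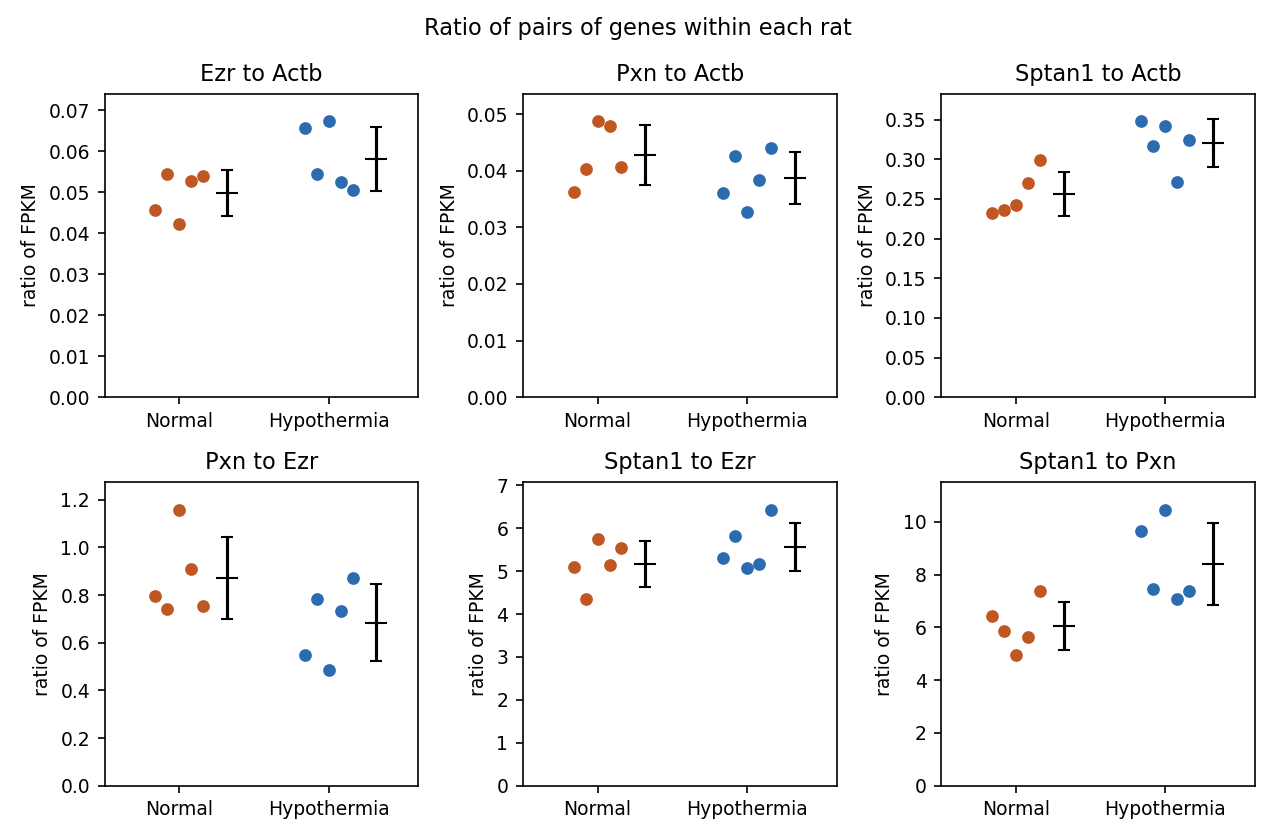
Ratio of the FPKM of 2 genes within each rat for the 6 pairs (1 panel each, vertical axis from 0), in the 5 Normal rats (orange) and the 5 Hypothermia rats (blue), with the mean and SD as a black bar. The Hypothermia rats sit higher for Sptan1 to Actb (0.271 to 0.348) and Sptan1 to Pxn (7.09 to 10.5), while the other panels show broad overlap.

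Across the rats the levels of the 4 genes were set beside the share of listed counts taken by lens fibre genes. Normal replicate 3 had the lowest fibre share, 22.2%, and the lowest Actb, Ezr and Sptan1 of all rats. Normal replicate 1 had the highest share of its group, 52.1%, and the highest value of its group for each of the 4 genes. Within the Normal Group the order of the 5 rats by Actb and by Ezr was the order by fibre share in 5 of 5 rats, whereas for Sptan1 the rank was the same in 2 of 5 rats and for Pxn in 1 of 5. In the Hypothermia Group, replicate 2 had the lowest fibre share, 58.3%, and the lowest value for each of the 4 genes. Replicate 5 had the highest share, 70.1%, and the highest Pxn, while Actb, Ezr and Sptan1 peaked in replicate 3, which had 66.3%. The rank by fibre share was matched within the Hypothermia Group in 3 of 5 rats for Actb and for Pxn. It was matched in 2 of 5 for Sptan1 and in 1 of 5 for Ezr. FPKM carries the size factors, which were lowest in the rat with the highest fibre share of each group (1.08 in Normal replicate 1, 0.744 in Hypothermia replicate 5). A low factor raises the FPKM of every gene in that rat. Raw counts in the Normal Group did not keep the fibre share order. For Actb, replicate 4 (16918) lay above replicate 5 (15415), and for Ezr, replicate 2 (2105) above replicate 1 (2007). How far the scaling set the orders by FPKM was not tested. Because the fibre shares of the groups did not overlap, a change at a given fibre share and a change in fibre share cannot be told apart in these samples.

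**Figure D4:**
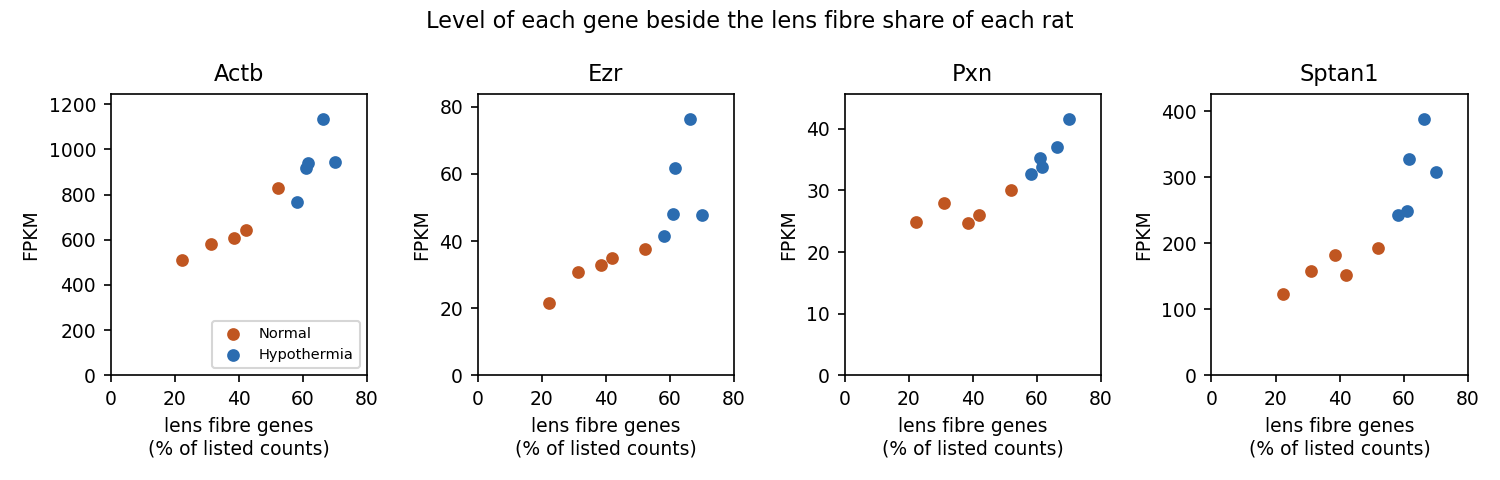
FPKM of each gene (vertical axis, 1 panel per gene) against the percent of listed counts taken by the lens fibre genes (horizontal axis) in each Normal rat (orange) and each Hypothermia rat (blue). The Normal rats lie between 22.2% and 52.1% and the Hypothermia rats between 58.3% and 70.1%, and in each panel the Hypothermia rats lie to the right of and mostly above the Normal rats.

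Markers of other tissues could be read only where the table held them, and as sums. Of the 8 fibroblast markers, Col1a1, Fn1, Fbn1 and Pdgfrb were in the table, with a summed normalised count from 1424 to 5692 under hypothermia against 3092 to 31478 in Normal rats. Of the 8 smooth muscle markers, Tagln and Mylk were in the table, with sums from 41.4 to 103 and from 93.3 to 312, and of the 14 retina and pigment epithelium markers 6 were, with sums from 213 to 455 and from 414 to 1705 and 2 of the 6 at 0 in at least 1 rat. Of the 9 leukocyte and 7 red blood cell markers, 0 were in the table. The part of these tissues in the results was not tested.

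By likeness over the 10 rats, the 4 genes lay at distances of 0.14 to 0.33 from each other, and whether they form a group was not tested. Likeness was measured as the root mean square difference of 2 genes in log2 normalised count, each gene centred on its own mean, over 2979 other genes. The mean was that of all 10 rats and not of each group, so the distance includes the group differences given above. Ezr and Sptan1 were closest among the 4, at 0.14, where the median distance of all genes was 0.38 from either. Ezr and Pxn were farthest apart, at 0.33. For Actb the most alike genes were Kpnb1 (a nuclear import receptor, 0.07), Cct7 (a subunit of the chaperonin that folds actin and tubulin, 0.07) and Actr10 (an actin-related subunit of dynactin, 0.07). For Ezr they were Wdr1 (which helps cofilin take filaments apart, 0.10), Ulk2 (an autophagy kinase, 0.11) and Bach2 (a transcription factor, 0.11). For Pxn they were Vim (the intermediate filament protein vimentin, 0.06), Mrps22 (a mitochondrial ribosomal protein, 0.06) and Eloa (an elongin subunit, 0.06). For Sptan1 they were Tmcc2 (0.10), Tmem160 (0.11) and Flot1 (a membrane raft protein, 0.11). These genes share libraries and scaling with the members.

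RefSeq gives the start of Ezr, Pxn and Sptan1 in the GRCr8 assembly, and the 250 bases before each start are shown because the 3 linkers moved the same way with the authors' size factors. No window was matched for Actb. Pxn has 2 listed starts, and the one farther upstream was used.
Ezr: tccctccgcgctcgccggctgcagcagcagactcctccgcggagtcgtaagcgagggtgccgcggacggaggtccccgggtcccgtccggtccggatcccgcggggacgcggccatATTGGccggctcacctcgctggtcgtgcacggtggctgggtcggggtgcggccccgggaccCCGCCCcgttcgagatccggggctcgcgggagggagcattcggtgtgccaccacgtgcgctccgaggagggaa
Pxn: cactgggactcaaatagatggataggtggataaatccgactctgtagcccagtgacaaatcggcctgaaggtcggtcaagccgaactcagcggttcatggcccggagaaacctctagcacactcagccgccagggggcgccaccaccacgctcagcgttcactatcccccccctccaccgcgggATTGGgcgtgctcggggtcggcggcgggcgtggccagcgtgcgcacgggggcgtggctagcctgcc
Sptan1: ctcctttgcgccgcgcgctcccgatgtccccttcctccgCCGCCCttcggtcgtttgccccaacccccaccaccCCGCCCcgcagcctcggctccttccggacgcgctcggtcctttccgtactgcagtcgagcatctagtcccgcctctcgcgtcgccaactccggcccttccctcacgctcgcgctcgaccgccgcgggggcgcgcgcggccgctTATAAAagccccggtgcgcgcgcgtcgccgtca
The windows are chr1:49416574-49416823 on the minus strand, chr12:46768698-46768947 on the minus strand and chr3:33638819-33639068 on the plus strand. Capitals mark matches, searched for on both strands. TATAAA is printed as such. The matches to CCAAT lie on the opposite strand and so appear as ATTGG. Likewise, those to GGGCGG appear as CCGCCC. Of 33469 such windows of all genes, 12.9% held TATAAA, 34.0% held CCAAT and 30.5% held GGGCGG. Sptan1 held TATAAA from 33 to 28 bases before its start, and Ezr and Pxn did not. Ezr and Pxn each held 1 CCAAT, and GGGCGG occurred in Ezr once and in Sptan1 at 2 places. GAANNTTC, a heat shock element core found in 7.23% of windows, and the CArG box bound by serum response factor, found in 1.5%, were in none of the 3 windows. All 3 windows were GC-rich, with 74.4%, 65.2% and 72.8% GC against a median of 51.2%. A match is a description of the letters only.

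For the rest of the actin system, 270 genes in 11 lists were looked for, and 75 of them were in the table and 74 tested. Of these 42 were called higher and 15 lower, which is 77.0% called, close to the 72.9% of all tested genes (52.3% higher and 20.5% lower, with groups that did not overlap for 41.9% and 16.7%). Their median log2FoldChange was 0.45, against 0.36 for all tested genes. Under TMM the same lists gave 19 called higher and 21 lower, and with total listed counts 1 higher and 48 lower, so the balance of the directions rested on the scaling. Directions given below for these genes hold with the authors' size factors.

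The spectrin list held 14 tested genes, 10 called higher, 2 lower and 2 not called, with a median of 0.69. That is 85.7% called against 72.9% of all tested genes. αII-spectrin pairs with β chains, of which Sptbn1 and Sptb are described here (Sptb was named after its values were seen). Sptbn1, the βII chain, had an FPKM of 108 ± 29.9 (SD, n = 5) under hypothermia against 47.6 ± 11.9 (SD, n = 5) in Normal rats, a log2FoldChange of 1.18 (SE 0.22, edgeR adjusted p = 0.00704). Sptb, the βI chain of red cells and muscle, rose by 0.35 (SE 0.09, edgeR adjusted p = 0.0294), and was no longer called with 6 of the 10 omitted singly. Tmod2, a tropomodulin that caps the pointed ends of filaments, rose by 1.55 (SE 0.45, edgeR adjusted p = 0.0422). Tmod3, the widely expressed tropomodulin, fell by 0.27 (SE 0.08, edgeR adjusted p = 0.0401), and each was no longer called with 8 or more of the 10 rats omitted singly. Epb41l5, a member of the protein 4.1 family, fell by 0.91 (SE 0.24, edgeR adjusted p = 0.0250), a call that 4 of the 10 single omissions ended.

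Among ezrin's family and partners, 5 genes were tested and all were called, 3 higher and 2 lower. Of all tested genes 72.9% were called, 52.3% higher and 20.5% lower. Radixin (Rdx) and moesin (Msn) were not analysed here. Cd44, a hyaluronan receptor that ERM proteins bind, rose from an FPKM of 9.42 ± 2.67 (SD, n = 5) to 22.7 ± 9.56 (SD, n = 5), a log2FoldChange of 1.27 (SE 0.29, edgeR adjusted p = 0.0176), called in all but 1 of the 10 single omissions. Clic5, an ezrin-associated protein of the cell cortex, had the largest rise, 2.38 (SE 0.70, edgeR adjusted p = 0.0487), but overlapped between the groups and lost its call with 9 of the 10 rats omitted singly. Its relative Clic4 fell by 0.92 (SE 0.18, edgeR adjusted p = 0.00770) without overlap. Slc9a3r2, a scaffold that binds ERM proteins, fell by 0.65 (SE 0.18, edgeR adjusted p = 0.0349), a call that 7 of the 10 single omissions ended.

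Around paxillin, the focal adhesion list held 12 tested genes, 6 called higher, 2 lower and 4 not called, with a median of 0.41. That is 66.7% called against 72.9% of all tested genes. Sorbs2, an adaptor that binds vinculin, rose by 1.38 (SE 0.34, edgeR adjusted p = 0.0250). Its relative Sorbs3 fell by 0.33 (SE 0.10, edgeR adjusted p = 0.0375). Single omission of rats ended the Sorbs2 call for 5 of the 10 and the Sorbs3 call for 8. Itga5, the α5 chain of the fibronectin receptor, fell by 0.65 (SE 0.14, edgeR adjusted p = 0.0103) without overlap. Itgb1, the β1 integrin chain, had a log2FoldChange of 0.40 and Tln1, which couples integrins to actin, one of -0.26, and neither was called (adjusted p = 0.126 and 0.143 from edgeR, chosen after their values were seen). The cadherin junction list had 4 tested genes. Ctnna2, the neural α-catenin, rose from 17.7 ± 10.97 (SD, n = 5) to 68.4 ± 21.6 (SD, n = 5) in FPKM, a log2FoldChange of 1.95 (SE 0.41, edgeR adjusted p = 0.0125). Nectin4 rose by 1.20 (edgeR adjusted p = 0.0146), and Cdh11 fell by 0.997 (edgeR adjusted p = 0.0135).

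**Figure D5:**
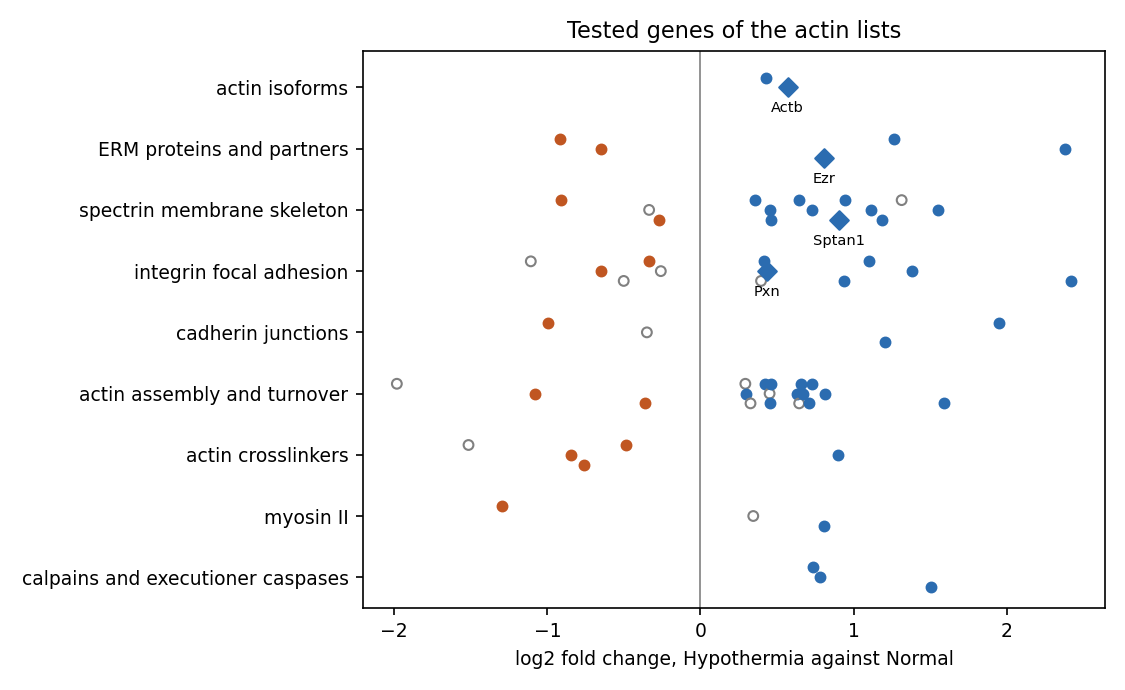
Log2FoldChange, Hypothermia Group against Normal Group with the authors' size factors (horizontal axis), of the tested genes in 9 of the actin lists, by list (vertical axis). Blue is called higher, orange called lower and open grey not called, and diamonds are Actb, Ezr, Pxn and Sptan1, which lie between 0.43 and 0.91 while the lists run from -1.98 to 2.42.

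Of 18 tested genes that build and take apart filaments, 11 were called higher, 2 lower and 5 not called, which is 72.2% called against 72.9% of all tested genes, with a median of 0.46. Cap2, a cyclase-associated protein that recycles actin monomers, had the largest rise, 1.59 (SE 0.31, edgeR adjusted p = 0.00949), and Wdr1 rose by 0.81 (SE 0.18, edgeR adjusted p = 0.0119). Fhod1, a formin, fell by 0.36 (SE 0.11, edgeR adjusted p = 0.0490), a call that 8 of the 10 single omissions ended. Of the myosin II genes, the light chain gene Myl6 rose by 0.81 (edgeR adjusted p = 0.00618), and Mylk, the kinase of the regulatory light chain, fell by 1.29 (edgeR adjusted p = 0.0388), a call that 6 of the 10 single omissions ended. Of the 5 tested crosslinkers 1 was called higher and 3 lower, where 52.3% and 20.5% of all tested genes were. Marcks rose by 0.90 (edgeR adjusted p = 0.0395), a call lost with 7 of the 10 rats omitted singly. Anln, the anillin of the cleavage furrow, and Pls1, a plastin, fell by 0.85 (edgeR adjusted p = 0.0134) and 0.76 (edgeR adjusted p = 0.0178).

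Serum response factor and its coactivators, which drive actin genes, were not analysed here. αII-spectrin is a classic substrate of calpains, proteases activated by calcium. The 2 calpain genes in the table were both called higher, where 52.3% of all tested genes were. Capn2 rose by 0.78 (SE 0.12, edgeR adjusted p = 0.00459) and Capn3, which lens fibres express as a special isoform, by 1.51 (SE 0.32, edgeR adjusted p = 0.0132). Cleavage of spectrin is not measured by RNA.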

How the data were processed

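Lens capsule RNA of 10 rats was sequenced as paired-end reads. Alignment by the authors used HISAT2 2.0.5 on Rnor_6.0. Their deposited counts come from featureCounts 1.5.0-p3 and are whole numbers. The annotation release is not given in the sources used here. The deposited FPKM values were made from counts and gene length and carry the authors' DESeq2 1.16.1 size factors, with 1 constant for all rats. The authors' mean normalised counts per group, a signal on the count scale, were used to recover those size factors by least squares (largest relative error 4.89e-10). Columns of the authors' own comparison, its log2 ratios and p-values with and without adjustment, were left unused.

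The whole table of 3334 genes went into edgeR 4.0.16, run in R 4.3.3 (filterByExpr, robust glmQLFit, glmQLFTest, group as the only factor, the recovered size factors as scaling). A standard error is the log2 fold change over the square root of F. The table holds changed genes only, so the Benjamini-Hochberg adjustment assumed 17000 tested genes in all, a round number chosen here. Called means an adjusted p under 0.05. Log2 normalised counts for likeness had a pseudocount of 1. Exact permutation tests used scipy 1.17.1 and figures matplotlib 3.10.9. Counts were also simulated for this comparison (3246 genes), with 100 genes changed by 0.5 and 99 by 1 on the log2 scale. The test called 48.0% and 82.8% of these, and 4 unchanged genes. The adjustment depends on the share of changed genes, and the real table holds changed genes only. These rates therefore need not carry over to it.

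The 4 genes, the lists and the main scaling were chosen with earlier results of these data known. Other genes are named by rule. These are the isoforms of actin, up to 2 highest and 2 lowest called genes per list with a mean normalised count of at least 50, and the 3 genes most like each member. The library kit does not mark strand, so reads of overlapping antisense genes cannot be told apart. Total depth per rat is known only for the listed genes. Alternatives were other scalings, filters, DESeq2 1.42.0, limma 3.58.1 on log2 FPKM with pseudocounts of 1 and 0.1, adjustment over the tested genes, the replicate number as a block, and each rat left out. TMM together with adjustment over the tested genes was added after seeing the data. Some genes that the rule names, and 1 list, are not reported here.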

Additional observations from a re-analysis of the deposited data

How the results depend on the processing

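For Actb, Ezr, Pxn and Sptan1 the direction and the call held without the count filter, with a filter of at least 50 counts in 5 rats, with robust = FALSE, with DESeq2 and the authors' size factors, with limma at both pseudocounts and with adjustment over the tested genes alone. Other scalings changed calls. In the order Actb, Ezr, Pxn, the log2 fold changes lost their calls at 0.28, 0.51 and 0.15 under TMM and also under TMM without the fibre genes (0.28, 0.51 and 0.14), at 0.26, 0.49 and 0.12 with median-of-ratios factors, and at 0.25, 0.48 and 0.11 with upper-quartile factors. DESeq2 with its own size factors lost Actb (0.26) and Pxn (0.12), and TMM with adjustment over the tested genes lost Pxn (0.15). Total listed counts turned Actb to -0.64, Ezr to -0.41, Pxn to -0.81 and Sptan1 to -0.32, with Ezr and Sptan1 not called. Relative to Actb, Pxn turned to -0.14, and Ezr (0.22) and Sptan1 (0.32) lost their calls. This follows from the shift each scaling gives to all genes.

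Same-numbered rats are different animals, and their deviations correlated between -0.20 and 0.24. The labels do not say whether same-numbered samples were handled together, and these correlations cannot settle it. Only replicate 5 passed 0.1, and 0 of the 5 Hypothermia rats correlated best with the Normal rat of its own number. With the replicate block, which leaves fewer degrees of freedom, Actb (0.58), Ezr (0.79), Pxn (0.43) and Sptan1 (0.90) kept their sizes but were not called, and 18 actin genes were called higher and 4 lower. With sign flips of same-numbered differences the Sptan1 to Actb ratio (0.33) and the Sptan1 to Pxn ratio (0.47) reached p = 0.0625, the smallest that this exact sign-flip test on 5 pairs can give.

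The number of actin genes called higher, 42, became 19 under TMM with or without the fibre genes and with median-of-ratios factors, 17 with upper-quartile factors, 27 with DESeq2 and its own factors, 5 relative to Actb and 1 with total listed counts. The number called lower, 15, became 48 with total listed counts, 24 with DESeq2 and its own factors, and 23 with adjustment over the tested genes, with or without TMM. Leaving out 1 rat at a time gave 25 to 46 higher and 6 to 14 lower. It gave log2 fold changes of 0.49 to 0.68 for Actb, 0.66 to 0.89 for Ezr, 0.38 to 0.48 for Pxn and 0.80 to 0.98 for Sptan1. The log2 difference of the Sptan1 to Actb ratio then ran from 0.29 to 0.38 and that of the Sptan1 to Pxn ratio from 0.39 to 0.54. With medians in place of means these were 0.43 and 0.34, at an adjusted p of 0.143 (exact permutation test).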
